A study of Mus musculus with 16 samples.

Results

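The genes described here encode proteins that crosslink, anchor and process the cornified envelope: *Tgm1*, *Tgm3*, *Tgm5*, *Casp14*, *Evpl*, *Ppl*, *Cst6*, *Asprv1*, *Sbsn* and *Krtdap*. They were taken by gene name from a count table of 55487 genes, and all 10 were found there once. All 10 were also among the 14233 genes that passed the filter on low counts. Expression had been measured by RNA-seq in urogenital sinus (UGS) epithelium, the fetal cell layer that gives rise to prostatic buds, of male C57BL/6J mouse fetuses at embryonic day E16.75. Pregnant dams received 1 oral dose on E13.5, either corn oil (vehicle, 5 ml/kg) or the dioxin TCDD, a long-lived agonist of the aryl hydrocarbon receptor (AHR). The dose of TCDD is stated as 5 µg/kg in the sample protocols but as 1 µg/kg in the overall design text. The day of exposure is that of the sample protocols, and a passage of the study's text gives a later day. Each group held 4 pools of 5 or 6 epithelia, separated by hand from the mesenchyme after enzyme digestion, so a replicate is a pool, and the labels do not say which litters a pool came from.

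The cornified envelope is the insoluble protein shell that replaces the plasma membrane of a terminally differentiating cell in stratified squamous epithelium such as epidermis. Transglutaminases join its proteins by bonds between glutamine and lysine residues, first on a plakin scaffold under the membrane and then onto precursors such as involucrin, loricrin and the small proline-rich proteins. Proteases and their inhibitors set when precursors and crosslinking enzymes are cleaved. The epithelium of the fetal UGS is not a cornified tissue, and AHR ligands are known to drive keratinocytes of the skin toward cornification.

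Summed over genes and both sequencing lanes, a pool held 22254896 to 28146766 read pairs. TCDD replicate 1 had been removed by the authors as an outlier. Each comparison is therefore given over the other 7 pools first and over all 8 pools where that changes it. Levels are in CPM, read counts relative to a library size scaled by trimmed mean of M values over the 8 pools. Log2 fold changes are TCDD over vehicle, and a gene was called at an adjusted p of at most 0.05 in edgeR's quasi-likelihood F-test. Both groups carried the transcripts of an epithelium, with *Cdh1* (E-cadherin) at a mean of 1414 CPM with vehicle and 1431 CPM in TCDD replicates 2 to 4. All 4 TCDD pools carried the response to exposure: *Cyp1a1*, the classical AHR target, stood at 130.1 CPM in TCDD replicate 1 and at 161 to 241 CPM in the other TCDD pools, against at most 0.0719 CPM with vehicle.

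Of the 10 genes, 8 rose in TCDD-exposed epithelium, none fell, and *Tgm1* and *Casp14* did not pass the test. DESeq2 called none lower either, and by unadjusted edgeR values 1 gene, *Casp14*, would have passed the 0.05 threshold as lower. The rises ran from 1.31-fold for *Ppl* to 3.94-fold for *Cst6* and, with a wide spread between pools, 12.8-fold for *Tgm3*. *Tgm3* passed the filter on low counts through TCDD replicates 2 to 4, with 379, 163 and 68 read pairs. In vehicle replicates 1 to 4 it held 49, 3, 7 and 12, so its place among the 8 depended on high counts with TCDD. The median log2 fold change of the 10 genes was 0.65, against −0.0024 for all genes tested, of which 11.9% were called higher. These genes and the other lists below were chosen with earlier results of these data known. Shares over all genes are therefore given as description and not as a test. In every one of the 10 genes the 3 TCDD pools lay outside the range of the 4 vehicle pools, above it for 9 genes and below it for *Casp14*, while 16.1% of all tested genes lay wholly above and 15.4% wholly below. With TCDD replicate 1 included, 4 of the 10 were called higher (*Evpl*, *Cst6*, *Sbsn* and *Krtdap*; 7.41% of all genes) and 6 lay wholly above the vehicle pools (10.1% of all genes, with 8.28% wholly below). Against a threshold of 1.5-fold, edgeR's TREAT test called *Cst6* and *Sbsn* higher (2.59% of all genes) and none of the 10 lower (1.44%; 4.03% in either direction). The count of 8 became 5 without vehicle replicate 3 or TCDD replicate 2 and 4 without TCDD replicate 3.

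**Figure D1:**
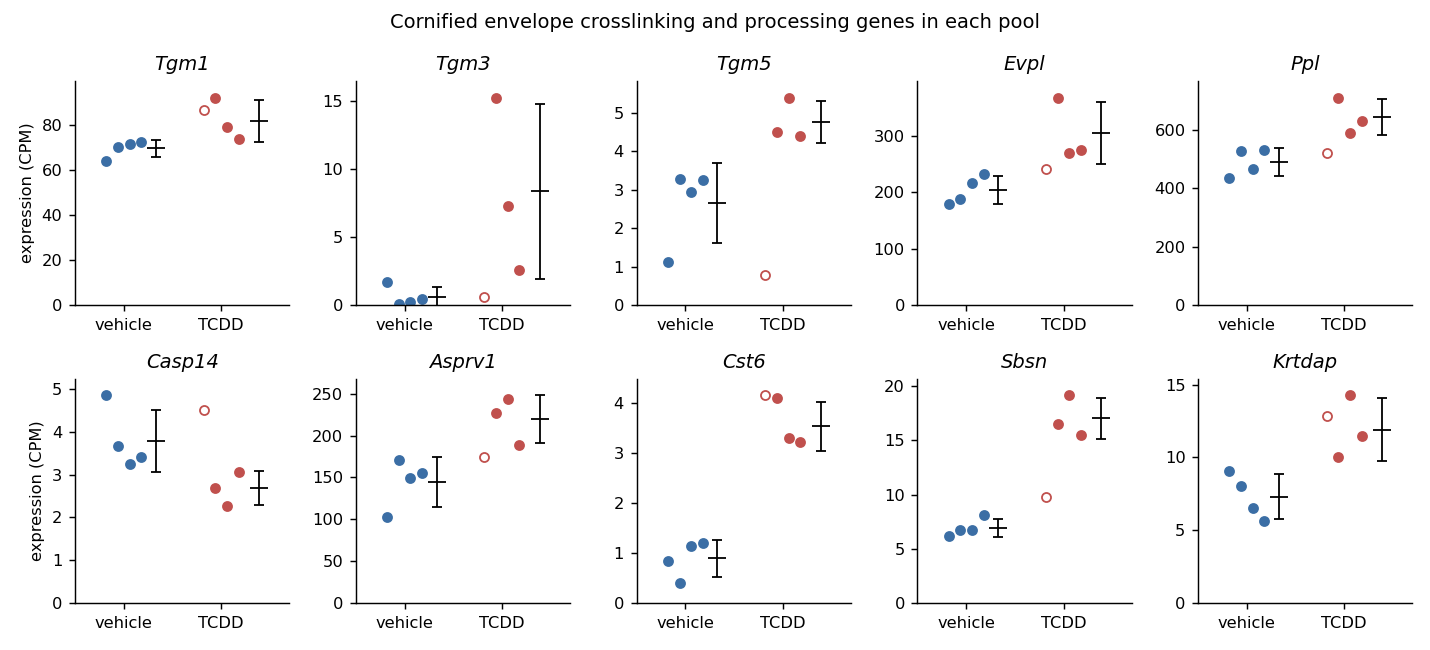
Expression of each of the 10 genes in CPM (vertical axes from 0, a separate scale for each gene) in 4 vehicle pools (blue) and 4 TCDD pools (red; the open circle is TCDD replicate 1), with the mean and SD of the vehicle pools and of TCDD replicates 2 to 4 in black (the lower bar of *Tgm3* with vehicle ends at the axis). The filled red points lie above all blue points for 9 genes and below them for *Casp14*.

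**Figure D2:**
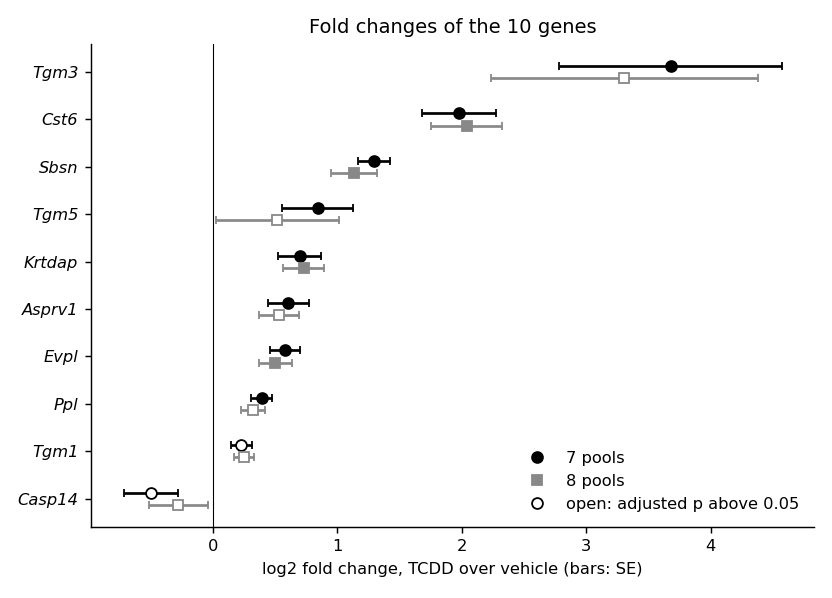
Log2 fold changes of TCDD over vehicle with their SE, from the fit of 7 pools (black circles) and of all 8 pools (gray squares); open symbols have an adjusted p above 0.05. In all, 8 genes have filled circles and 4 have filled squares (*Evpl*, *Cst6*, *Sbsn* and *Krtdap*).

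The genes already differed widely in level in vehicle-exposed epithelium. Divided by exon length, mean levels with vehicle were 93.3 CPM per kb for *Asprv1* and 71.1 for *Ppl*, whose pools overlapped (66.1 to 110.3 and 63.1 to 76.9 CPM per kb). *Evpl* (28.0 to 36.4 CPM per kb), *Tgm1* (20.3 to 22.9 CPM per kb) and *Krtdap* (8.33 to 13.3 CPM per kb) followed, each with pools clear of its neighbours in this order. *Sbsn* (1.91 CPM per kb) and *Casp14* (1.59 CPM per kb) overlapped, *Tgm5* stood at 0.840 CPM per kb, and *Cst6* (0.219 CPM per kb) and *Tgm3* (0.153 CPM per kb) overlapped at the bottom. Exon length is the union over all annotated transcripts, 4090 bases for *Cst6*, and a longer union lowers the level per kb. Undivided, *Tgm5*, *Cst6* and *Tgm3* averaged 2.65, 0.8945 and 0.631 CPM with vehicle. With TCDD, *Asprv1* and *Ppl* were still the highest, at 142 and 93.3 CPM per kb in replicates 2 to 4. The largest fitted fold changes, of *Tgm3* and *Cst6*, thus belonged to the genes with the lowest levels.

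Among the crosslinking enzymes, the abundant *Tgm1* differed little between groups while the scarce *Tgm3* and *Tgm5* were called higher. *Tgm1* (ENSMUSG00000022218, GRCm38 chromosome 14, 55700009 to 55713926, minus strand) encodes the membrane-anchored transglutaminase 1, whose loss in humans causes lamellar ichthyosis. It was at 64.2, 70.1, 71.5 and 72.6 CPM in vehicle replicates 1 to 4 and at 86.5, 92.2, 78.9 and 73.9 CPM in TCDD replicates 1 to 4. All 4 TCDD pools were above all 4 vehicle pools, but TCDD replicate 4 and vehicle replicate 4 nearly met. In the fit of 7 pools the log2 fold change was 0.23 (SE 0.0842, adjusted p = 0.0662; 95% interval by the normal approximation 0.06 to 0.39), and it passed the test without TCDD replicate 4 (adjusted p = 0.0422). Over all 8 pools it was 0.25 (adjusted p = 0.0575).

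*Tgm3* (ENSMUSG00000027401, chromosome 2, 130012349 to 130050399, plus strand) encodes transglutaminase 3, a cytosolic proenzyme activated by cleavage that crosslinks proteins in epidermis and hair. It was at 1.71, 0.108, 0.268 and 0.435 CPM in vehicle replicates 1 to 4, from 49, 3, 7 and 12 read pairs. In TCDD replicates 2, 3 and 4 it was at 15.2, 7.26 and 2.58 CPM, from 379, 163 and 68 read pairs, and in TCDD replicate 1 at 0.576 CPM, from 13. TCDD replicates 2 to 4 differed more among themselves than the lowest of them did from vehicle replicate 1, and TCDD replicate 1 lay within the vehicle range. Its log2 fold change was 3.68 (SE 0.893, adjusted p = 0.0299). The call was lost over all 8 pools (adjusted p = 0.0844), without vehicle replicate 2, 3 or 4 (adjusted p = 0.0737, 0.0859 and 0.0687) and without TCDD replicate 2 or 3 (adjusted p = 0.0541 and 0.0674). *Pax8*, a marker of Wolffian and Müllerian duct epithelium, stood in the same order across the vehicle pools (4.65, 0, 1.15 and 3.12 CPM in replicates 1 to 4). Across TCDD replicates 1 to 4 its order differed from that of *Tgm3* (4.25, 3.42, 4.54 and 0.682 CPM). The 4 duct markers listed summed to 0.396 to 8.665 CPM with vehicle, 1.25 to 8.33 CPM in TCDD replicates 2 to 4 and 9.30 CPM in TCDD replicate 1. Neither *Pax8* (adjusted p = 0.864) nor *Pax2* (adjusted p = 0.963) passed the test between groups, and the part of such cells in the level of *Tgm3* was not tested.

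*Tgm5* (ENSMUSG00000053675, chromosome 2, 121046111 to 121085841, minus strand) encodes transglutaminase 5, whose loss in humans causes peeling of the outer epidermis. It was at 1.12, 3.28, 2.95 and 3.26 CPM in vehicle replicates 1 to 4 and at 0.797, 4.50, 5.39 and 4.39 CPM in TCDD replicates 1 to 4. Replicate 1 of either group stood well below the other pools, and the remaining 3 TCDD pools were above the remaining vehicle pools. A log2 fold change of 0.84 was fitted (SE 0.286, adjusted p = 0.0485), but the call was lost over all 8 pools (log2 fold change 0.52, adjusted p = 0.556). It was also lost without vehicle replicate 1 or 3 (adjusted p = 0.0544 and 0.0843) without any one of TCDD replicates 2, 3 and 4 (adjusted p = 0.0882, 0.160 and 0.112), and with RLE scaling, no scaling, summed lanes or the replicate number as a block.

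Set against the other transglutaminases by CPM per kb of exon, *Tgm1* made up 88.0% to 93.2% of the family sum with vehicle and 82.5% to 88.9% in TCDD replicates 2 to 4. The share of *Tgm3* was 0.107% to 1.90% with vehicle and 10.4%, 6.06% and 2.37% in TCDD replicates 2, 3 and 4. In TCDD replicate 1 the shares were 96.7% for *Tgm1* and 0.492% for *Tgm3*. *Tgm2*, the widely expressed tissue transglutaminase, stood at 4.96 ± 2.40 CPM (SD, n = 4) with vehicle and 2.97 ± 0.603 CPM (SD, n = 3) in TCDD replicates 2 to 4 (log2 fold change −0.73, adjusted p = 0.141), and it was called lower without the filter on low counts, without vehicle replicate 1 and with the replicate number as a block. It was the only gene tested of the 6 others of the family listed. *Tgm4*, *Tgm6*, *Tgm7*, *F13a1* and the enzymatically inactive *Epb42* had too few counts to test, and *Tgm6* held 1 read pair over all pools.

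**Figure D3:**
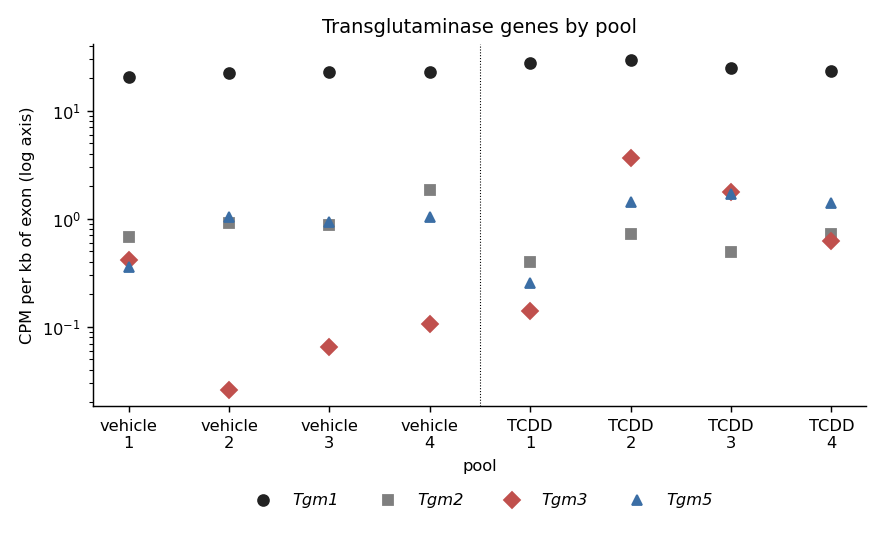
Levels of *Tgm1*, *Tgm2*, *Tgm3* and *Tgm5* in CPM per kb of exon (log axis) in each of the 8 pools, vehicle left and TCDD right of the dotted line. *Tgm1* stays at 20.3 to 29.2 CPM per kb, while *Tgm3* spans 0.0261 to 3.69 CPM per kb and *Tgm5* is lowest in replicate 1 of either group.

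The genes of both plakins of the envelope scaffold rose, and by similar amounts. *Evpl* (ENSMUSG00000034282, chromosome 11, 116220559 to 116238077, minus strand) and *Ppl* (ENSMUSG00000039457, chromosome 16, 5086291 to 5132421, minus strand) encode envoplakin and periplakin, which pair with each other beneath the plasma membrane and link the envelope to desmosomes and keratin filaments. *Evpl* was at 179, 188, 217 and 233 CPM in vehicle replicates 1 to 4 and at 242, 368, 271 and 276 CPM in TCDD replicates 1 to 4. Every TCDD pool was above every vehicle pool, and TCDD replicate 2 was the highest. The log2 fold change was 0.58 (fold change 1.49, adjusted p = 0.00446), with an adjusted p of 0.0282 over all 8 pools. *Ppl* was at 435, 528, 467 and 530.1 CPM in vehicle replicates 1 to 4 and at 520.0, 710.2, 588 and 632 CPM in TCDD replicates 1 to 4. TCDD replicate 1 lay inside the vehicle range and the other TCDD pools above it. Its log2 fold change was 0.39 (SE 0.0870, adjusted p = 0.00486; 0.32 with an adjusted p of 0.0512 over all 8 pools). The ratio of *Evpl* to *Ppl* by CPM per kb was 0.384 to 0.502 with vehicle and 0.471 to 0.560 with TCDD, so that the groups overlapped in it.

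Of 12 tested genes of 14 other plakins and desmosomal partners of this scaffold, 3 were higher and none lower, with a median log2 fold change of 0.03. Of all genes tested, 23.0% were called in either direction. *Dsp*, which encodes the plakin desmoplakin, averaged 1013 ± 27.4 CPM (SD, n = 4) with vehicle and 1093 ± 172 in TCDD replicates 2 to 4 (SD, n = 3; adjusted p = 0.434), and *Plec*, *Macf1*, *Eppk1*, *Kazn* and the plakin gene *Dst* (log2 fold change −0.34, adjusted p = 0.0616) did not pass it either. Under 7 of the 17 alternatives *Dst* was called lower. The desmosomal genes that rose were *Dsc2*, the desmocollin of simple and stratified epithelia (log2 fold change 0.88, SE 0.0952, adjusted p = 1.80e-05), *Dsg3*, a desmoglein of stratified epithelia (log2 fold change 2.22, SE 0.275, adjusted p = 8.78e-05), and *Pkp1*, plakophilin 1 (log2 fold change 0.26, SE 0.0781, adjusted p = 0.0254).

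Among the proteases and the protease inhibitor, *Cst6* and *Asprv1* rose, while *Casp14* was the only one of the 10 genes with lower values in TCDD replicates 2 to 4. *Cst6* (ENSMUSG00000024846, chromosome 19, 5344705 to 5349574, minus strand) encodes cystatin M/E, an inhibitor of the cysteine proteases legumain and cathepsin L that restrains activation of transglutaminase 3 in skin, and its loss in the mouse causes a lethal defect of cornification. It was at 0.839, 0.396, 1.15 and 1.20 CPM in vehicle replicates 1 to 4, from 24, 11, 30 and 33 read pairs. In TCDD replicates 1 to 4 it was at 4.16, 4.10, 3.297 and 3.22 CPM, from 94, 102, 74 and 85 read pairs. The 4 TCDD pools lay close together, far above the vehicle pools, and replicate 1 was the highest of them. Its log2 fold change was 1.98 (SE 0.295, adjusted p = 2.46e-04) and 2.04 over all 8 pools (adjusted p = 9.52e-04). Its known targets did not rise with it: *Ctsl*, cathepsin L, fell (129 ± 23.6 CPM with vehicle, SD, n = 4, and 70.5 ± 5.89 CPM in TCDD replicates 2 to 4, SD, n = 3; log2 fold change −0.88, adjusted p = 4.28e-04), and *Lgmn*, legumain, stood at 38.5 ± 1.93 and 33.9 ± 3.67 CPM in the same groups (adjusted p = 0.161).

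*Asprv1* (ENSMUSG00000033508, chromosome 6, 86628164 to 86629710, plus strand) is a gene of 1 exon for a retroviral-like aspartic protease that processes profilaggrin in the epidermis. It was at 102, 171, 149 and 155 CPM in vehicle replicates 1 to 4 and at 174, 227, 244 and 188 CPM in TCDD replicates 1 to 4. Vehicle replicate 1 was the lowest pool, and TCDD replicate 1 stood just above the highest vehicle pool. On the log2 scale the fold change was 0.60 (SE 0.164, adjusted p = 0.0288). The call was lost over all 8 pools (adjusted p = 0.0563), without vehicle replicate 3 (adjusted p = 0.0662) and without TCDD replicate 2 or 3 (adjusted p = 0.117 and 0.138). *Casp14* (ENSMUSG00000005355, chromosome 10, 78711991 to 78718294, minus strand) encodes caspase 14, which in epidermis is active in cornifying cells and takes part in the breakdown of filaggrin. It was at 4.86, 3.67, 3.25 and 3.41 CPM in vehicle replicates 1 to 4 and at 4.52, 2.69, 2.27 and 3.07 CPM in TCDD replicates 1 to 4. TCDD replicates 2 to 4 were below all vehicle pools and TCDD replicate 1 was among the highest pools. The log2 fold change was −0.50 (SE 0.216, adjusted p = 0.116; 95% interval −0.92 to −0.08), and −0.28 over all 8 pools (adjusted p = 0.491).

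*Flg*, which encodes the profilaggrin that *Asprv1* and *Casp14* act on in skin, had 0 read pairs in all 8 pools, which allows up to 3 read pairs, or 0.105 to 0.133 CPM, per pool by counting error alone. The gene consists largely of near-identical repeats, and read pairs that align to more than 1 place were dropped before counting. The peptidylarginine deiminase genes *Padi1* (log2 fold change 0.50, adjusted p = 0.410) and *Padi3* (log2 fold change −0.43, adjusted p = 0.262), whose enzymes modify filaggrin and keratins, did not pass the test. Of 18 tested genes of other envelope proteases and inhibitors, 7 were higher and 3 lower, with a median log2 fold change of 0.02. Of all genes tested, 11.9% were called higher and 11.2% lower. Those higher included *Ctsh* (cathepsin H, log2 fold change 1.03, SE 0.0818, adjusted p = 1.13e-06), *Ctsd* (cathepsin D, which can activate transglutaminase 1; log2 fold change 0.85, SE 0.0777, adjusted p = 4.08e-06), *Spint1* (an inhibitor of the protease matriptase; log2 fold change 0.67, SE 0.0708, adjusted p = 1.32e-05) and *Dnase1l2* (a DNase of cornifying cells; log2 fold change 1.27, SE 0.127, adjusted p = 3.36e-05). Besides *Ctsl*, those lower were *Klk14*, a kallikrein protease (log2 fold change −2.42, adjusted p = 9.95e-05), and *Spink5*, an inhibitor of kallikreins (log2 fold change −3.73, SE 0.404, adjusted p = 5.66e-05). *Spink5* averaged 8.56 CPM with vehicle and 0.6475 CPM in TCDD replicates 2 to 4, and stood at 0.620 CPM in TCDD replicate 1. The matriptase gene *St14* (adjusted p = 0.231) and its partner *Prss8* (adjusted p = 0.953) did not pass the test.

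The genes of both secreted proteins rose, together with the gene that lies between them. *Sbsn* (ENSMUSG00000046056, chromosome 7, 30751471 to 30756134, plus strand) encodes suprabasin, a secreted protein of suprabasal cells and a transglutaminase substrate, and *Krtdap* (ENSMUSG00000074199, chromosome 7, 30787896 to 30791097, plus strand) encodes keratinocyte differentiation associated protein. *Dmkn*, which encodes dermokine, sits between them on the same strand (30763756 to 30781063), and the 3 genes span 39.6 kb. *Sbsn* was at 6.18, 6.73, 6.73 and 8.09 CPM in vehicle replicates 1 to 4 and at 9.79, 16.5, 19.2 and 15.5 CPM in TCDD replicates 1 to 4. Every TCDD pool was above every vehicle pool, with replicate 1 the lowest of them. Its log2 fold change was 1.29 (SE 0.130, adjusted p = 9.28e-06), and 1.14 over all 8 pools (adjusted p = 0.00244). Some exon sequence of *Sbsn* overlaps *Tmem147os* on the same strand (201 to 274 read pairs per pool), and pairs assignable to neither gene were not counted.

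*Krtdap* was at 9.05, 8.03, 6.50 and 5.66 CPM in vehicle replicates 1 to 4 and at 12.8, 10.01, 14.3 and 11.4 CPM in TCDD replicates 1 to 4. The groups did not overlap, and TCDD replicate 1 was the second highest pool. The log2 fold change was 0.70 (SE 0.174, adjusted p = 0.00996; adjusted p = 0.0135 over all 8 pools), a call lost without TCDD replicate 3 (adjusted p = 0.0603). *Dmkn* was at 5.94, 3.46, 4.90 and 4.79 CPM in vehicle replicates 1 to 4 and at 13.9, 24.2, 20.4 and 21.8 CPM in TCDD replicates 1 to 4. Its log2 fold change, 2.21, had an SE of 0.150 and an adjusted p of 3.51e-07 (9.51e-05 over all 8 pools). By fitted value this was the highest of the 3 neighbours, and the differences between them were not tested.

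**Figure D4:**
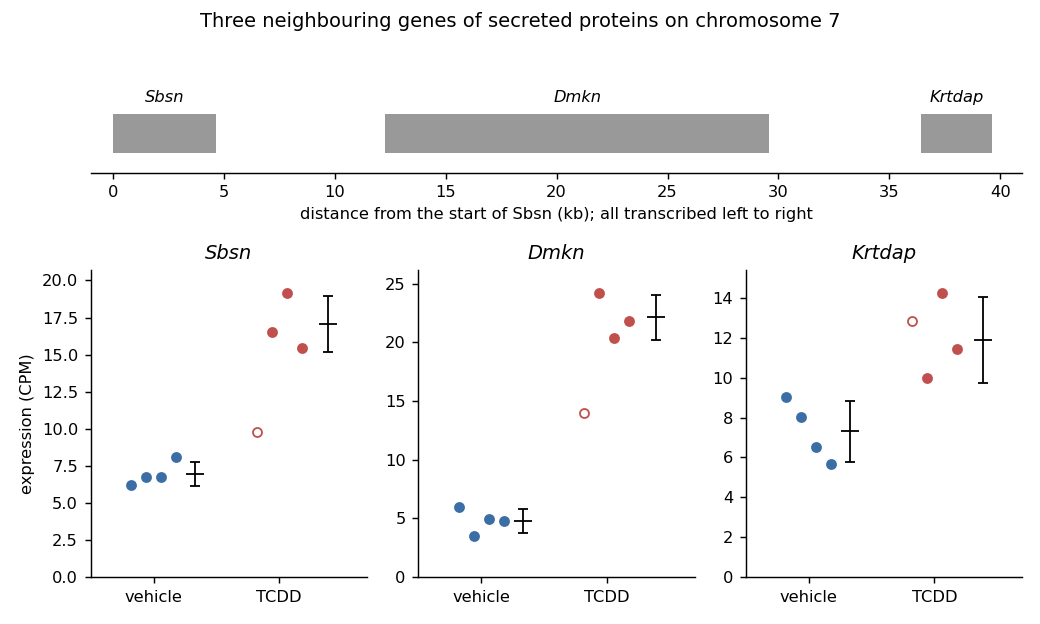
Top, the extent of *Sbsn*, *Dmkn* and *Krtdap* as distance in kb from the start of *Sbsn*; bottom, expression of each in CPM (axes from 0) in vehicle pools (blue) and TCDD pools (red; open, replicate 1), with the mean and SD of the vehicle pools and of TCDD replicates 2 to 4 in black. For each of the 3 genes all 4 TCDD pools lie above all 4 vehicle pools.

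The sequences before the starts of these 3 neighbours are shown because the genes rose together and each holds the same short motif there. The lines give the 100 bases before the RefSeq start and the start base itself (GRCm38.p6, plus strand; Sbsn chr7:30751371-30751471, Dmkn chr7:30763656-30763756, Krtdap chr7:30787805-30787905), with TGAGTCA, the reverse complement of the AP-1 motif TGACTCA, in capitals.
Sbsn: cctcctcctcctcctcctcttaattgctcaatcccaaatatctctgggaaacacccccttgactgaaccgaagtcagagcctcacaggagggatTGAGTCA
Dmkn: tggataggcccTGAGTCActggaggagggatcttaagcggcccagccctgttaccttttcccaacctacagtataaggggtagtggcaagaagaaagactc
Krtdap: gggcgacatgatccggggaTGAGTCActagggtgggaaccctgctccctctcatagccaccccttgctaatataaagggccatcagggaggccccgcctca
The motif begins 6 bases before the start of *Sbsn*, 89 before that of *Dmkn* and 81 before that of *Krtdap*. *Dmkn* has 3 RefSeq starts, of which the most upstream is shown, and the motif begins 91 and 82 bases before the others (30763758 and 30776405), the latter also with GCGTG beginning 105 bases before it. AP-1 is a family of JUN and FOS dimers known to act on many genes of keratinocyte differentiation, and a match of these letters is a description and not a site of binding. Over the same stretch, the motif was found on either strand at 1.948% of the 32851 RefSeq windows of all genes. These stretches were printed because they hold the motif, and its part in the rise was not tested.

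Windows of 300 bases (250 before to 50 after the start) were on hand for 7 of the 10 genes, in 8 windows, since *Tgm1* has 2 starts. Searched on both strands, TGACTCA was found in the windows of *Sbsn* and *Krtdap* alone, and in 5.202% of the 32851 windows of all genes. The core of the AHR response element, GCGTG, was in 1 window, that of a *Tgm1* start, where it begins at base 9 of the transcript, and in 32.4% of all windows. TGACNNNGC, the core of the antioxidant response element, was found for *Tgm5* and *Casp14* and in 12.4% of all windows. AACNGGTT, a motif of grainyhead-like factors, was found for *Tgm5* and in 2.09% of all windows. The windows of *Tgm3* and *Asprv1* held none of these letters, which says nothing of elements farther away.

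TCDD replicate 1 did not stand in the same place for all 10 genes, although its AHR response was strong. On the log2 scale (with 0.1 CPM added), with the vehicle mean at 0% and the mean of TCDD replicates 2 to 4 at 100%, it stood at 139% for *Tgm1*, 118% for *Krtdap* and 112% for *Cst6*. It stood at 47.8% for *Asprv1*, 44.1% for *Evpl*, 38.7% for *Sbsn*, 23.0% for *Ppl* and 10.1% for *Tgm3*. For *Casp14* (−54.5%) and *Tgm5* (−162%) it lay on the far side of the vehicle mean. It was above all vehicle pools for 6 genes, within their range for 3 and below it for *Tgm5*. The same pool held 82.7 CPM of *Ivl*, which encodes involucrin, against 24.7 ± 6.35 with vehicle (SD, n = 4) and 298 ± 56.4 in TCDD replicates 2 to 4 (SD, n = 3).

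**Figure D5:**
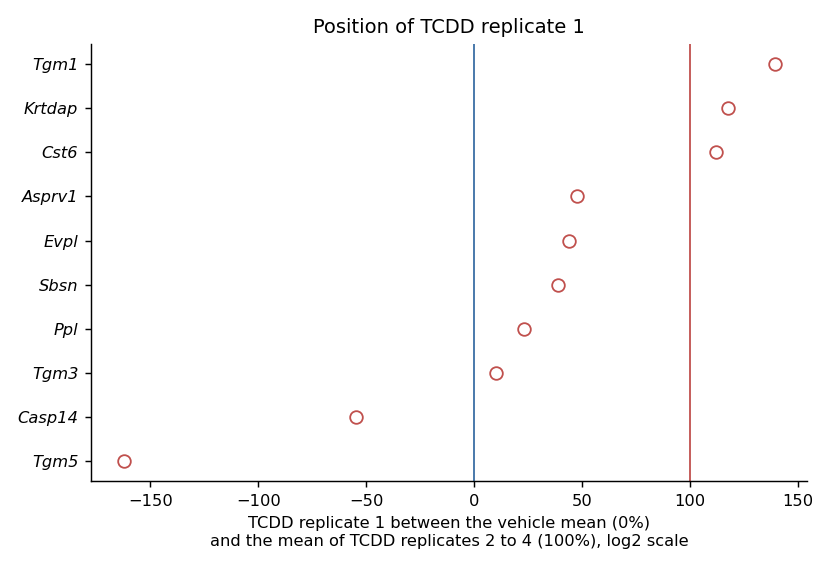
Position of TCDD replicate 1 for each of the 10 genes on a log2 scale, as a percentage of the way from the vehicle mean (0%, blue line) to the mean of TCDD replicates 2 to 4 (100%, red line). *Tgm1*, *Krtdap* and *Cst6* lie past the red line, 5 genes lie between the lines, and *Casp14* and *Tgm5* lie left of the blue line.

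Most genes of transglutaminase substrates that could be tested rose as well. Of 33 substrates listed, 10 had enough counts, of which 7 were higher, none was lower and 3 did not pass the test. The median log2 fold change was 1.69 (11.9% of all genes were called higher). *Sprr2a1*, 1 of the 7, passed the filter through TCDD replicates 2 to 4 (60, 96 and 57 read pairs, against 6, 10, 2 and 17 with vehicle). It was not tested over all 8 pools. Over all 8 pools 5 of 9 tested substrates were higher (7.41% of all genes). *Ivl* (log2 fold change 3.59, SE 0.225, adjusted p = 3.33e-05), *Crnn* (cornulin, log2 fold change 3.09, SE 0.151, adjusted p = 1.39e-08), *Sprr1a* (a small proline-rich protein, log2 fold change 1.59, SE 0.128, adjusted p = 1.10e-05) and *Hrnr* (hornerin, log2 fold change 3.19, SE 0.224, adjusted p = 3.97e-07) were among the 7. *Lor*, loricrin, the main envelope protein of epidermis, was at 62.8 ± 4.98 CPM with vehicle and 61.2 ± 12.4 in TCDD replicates 2 to 4 (log2 fold change −0.04, SE 0.122, adjusted p = 0.856). With *Flg*, 9 of the 33 substrates had no read pair in any pool. Members of the *Sprr2* group are near-identical copies, so that their counts are uncertain.

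Of 11 tested genes of the lipid envelope, the layer of ceramides bound to the outer face, 10 were higher and none lower (11.9% of all genes were called higher). The median log2 fold change was 0.86, and 6 of 10 tested were higher over all 8 pools (7.41% of all genes). *Lipm*, 1 of the 10 higher, passed the filter through TCDD replicates 2 to 4 (43, 41 and 48 read pairs, against 14 to 16 with vehicle). It was not tested over all 8 pools. The genes that rose included *Elovl4*, an elongase of very long fatty acids (log2 fold change 1.81, SE 0.174, adjusted p = 6.56e-06), *Cyp4f39*, a fatty acid hydroxylase (log2 fold change 0.86, SE 0.0837, adjusted p = 6.95e-06), *Ephx3*, an epoxide hydrolase (log2 fold change 1.40, SE 0.184, adjusted p = 9.78e-05), and *Cers3*, a ceramide synthase (log2 fold change 0.49, SE 0.0751, adjusted p = 3.01e-04). The lipoxygenase genes *Alox12b* and *Aloxe3* and the lipid transporter gene *Abca12* had too few counts to test.

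Markers of some other cells also differed between the groups. The 11 mesenchymal markers summed to 139 to 200 CPM with vehicle (199.5 CPM at the highest), 80.2 to 84.8 CPM in TCDD replicates 2 to 4 and 158 CPM in TCDD replicate 1, and 7 of 10 tested were lower, or 3 of 10 over all 8 pools. The 6 urothelial markers were all higher and summed to 1278 to 1647 CPM with vehicle, 3094 to 3822 CPM in TCDD replicates 2 to 4 and 1943 CPM in TCDD replicate 1. Beside these and the following counts, 11.9% of all genes tested were called higher and 11.2% lower (7.41% and 6.0% over all 8 pools). Of 7 markers of skin epidermis, 5 were tested: *Krt1*, *Krt10* and *Krt77* were higher, *Lor* and *Krt2* did not pass the test, *Flg* was at 0, and the list summed to 172 to 187 CPM with vehicle, 488 to 565 CPM in TCDD replicates 2 to 4 and 686 CPM in TCDD replicate 1. Melanocyte markers, with *Tyrp1* at 0, summed to 2.25 to 2.88 CPM with vehicle and 3.10 to 5.38 CPM in TCDD replicates 2 to 4, and the 1 tested did not pass. Of 5 tested leukocyte markers 2 were higher (1 of 4 over all 8 pools; 9.26 to 17.3 CPM with vehicle, 15.1 to 23.8 CPM in TCDD replicates 2 to 4) and of 2 tested smooth muscle markers 1 was lower (0 over all 8 pools; 2.87 to 5.97 and 1.11 to 1.78 CPM), while none of 4 tested markers of neurons and glia was called and those of endothelium and red blood cells had too few counts to test. Of 11 epithelial markers 4 were higher and 1 was lower, and they summed to 8825 to 9209 CPM with vehicle and 9737 to 10950 CPM in TCDD replicates 2 to 4. In pooled tissue, fewer cells of a type and less RNA per cell cannot be told apart, and the part of these cells in the levels of the 10 genes was not tested.

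Patterns most like those of single members were sought among 14051 genes by the root mean square distance between log2 CPM values centred on their mean over the 8 pools. The nearest to *Tgm5* was *Padi1*, at a distance of 0.238 against a spread of 0.857 for *Tgm5* itself, with 7.09 and 5.76 CPM in replicate 1 of vehicle and TCDD and 14.1 to 24.2 CPM in the other 6 pools. The nearest to *Tgm3* was *Ivl*, but at 0.953 against a spread of 1.94, so that no gene followed it closely. The nearest to *Evpl* was *Krt7*, a keratin of urothelium and simple epithelia (0.0719 against 0.312), to *Cst6* the transcription factor gene *Tbx2* (0.257 against 1.05), and to *Sbsn* the gene *Adap1* (0.126 against 0.606). *Slc45a4*, *Tprn*, *Cpne8*, *Vsig10l* and *Gm34220* were nearest to *Tgm1*, *Ppl*, *Casp14*, *Asprv1* and *Krtdap*, at distances of 0.0368 to 0.140.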

How the data were processed

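RNA-seq was performed on UGS epithelium pools, 4 from vehicle-exposed and 4 from TCDD-exposed dams, each on 2 lanes. By the study's methods, reads were trimmed with Skewer and mapped by HISAT2 2.1.0 (GRCm38.p6), and the authors obtained the deposited counts of read pairs per gene from HTSeq 0.12.4, by strand over exons, dropping read pairs with several alignments. The last lines of the table, which name no gene, held 17.4% to 20.1% of a pool's pairs and were left out. The authors' comparison tables hold their own fold changes and p-values and were not used.

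Lanes of a pool, whose differences were near sampling noise (0.995 to 1.03, chi-square per gene), were averaged and counted as 1 sample. Genes were filtered with filterByExpr (minimum count 10, minimum total 15), scaled by TMM and tested with edgeR 4.0.16 in R 4.3.3 (quasi-likelihood F-test, robust, legacy method) without TCDD replicate 1, as in the study. Benjamini-Hochberg adjustment was applied across every gene tested. An SE is the unshrunk log2 fold change over the square root of F. Alternatives were all 8 pools, TREAT, DESeq2 1.42.0, other scalings, no filter, summed lanes, the newer quasi-likelihood method, each pool left out, and the replicate number as a block. p-values measure the spread between pools, whose litters are not given in the sources used here.

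The 10 genes and the other lists were chosen with earlier results of these data known. Named besides the 10 were *Dmkn*, up to 4 genes with the smallest adjusted p and the 2 with the highest CPM of each list, the nearest pattern of each of the 10, *Cyp1a1*, and, chosen after their values were seen, genes whose role touches one of the 10. Coordinates and exon lengths come from GENCODE M21 (GRCm38), and start windows from RefSeq (GRCm38.p6).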

Additional observations from a re-analysis of the deposited data

Results flagged for a closer look

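*Tgm5* in vehicle replicate 1 stood apart from the other vehicle pools. It was at 1.12 CPM, from 32 read pairs, against 2.95 to 3.28 CPM in vehicle replicates 2 to 4, a gap of 0.847 of the range of the 4 pools, above Dixon's 95% critical value. Of 20 groups of 4 pools checked (10 genes, 2 groups), this was the only one past it, and chance gives about 1 in 20.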

How the results depend on the processing

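The direction of all 10 genes was the same under all 17 alternatives, and no gene was called lower under any of them; *Casp14* had an unadjusted interval below 0 but an adjusted p of 0.0872 to 1 by edgeR and DESeq2. *Cst6*, *Sbsn* and *Dmkn* were called under every alternative. The count of genes called higher, 8, became 4 over all 8 pools and 2 by TREAT, stood at 7 or 8 under the other scalings, filters and tests, and ran from 4 to 8 when each pool was left out. Over all genes, 3276 were called, 1884 over all 8 pools, 573 by TREAT and 2250 to 3214 with a pool left out. Of the other envelope lists and *Dmkn* together, 31 genes were called, 25 over all 8 pools, 19 by TREAT and 29 to 31 with a pool left out. *Tgm5*, nearest to the threshold, was also lost with RLE scaling, with no scaling and with lanes summed (adjusted p = 0.0501, 0.0550 and 0.0601), and *Tgm3* without the filter (adjusted p = 0.0865). The causes were not tested.

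In the 7 pools, deviations from the group means correlated at −0.127, −0.058 and −0.0656 between pools numbered 2, 3 and 4, none of which correlated best with its own number, so these numbers were not taken as pairs. The pair numbered 1 was not checked, since TCDD replicate 1 was left out. With the replicate block, 7 of the 10 genes were called higher (*Tgm5* was lost, log2 fold change 0.58, adjusted p = 0.101), 2424 genes in all and 29 of the other envelope lists and *Dmkn* together. Depth limits *Tgm3*, *Tgm5* and *Cst6* most, with as few as 3, 18 and 11 read pairs in a pool.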
